A study of Homo sapiens with 6 samples.

Results

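ATP-dependent chromatin remodelers were followed as a group of 49 names among the 17222 gene names of the deposited count table. They were taken by a rule on names. It covered every SMARC gene, CHD1 to CHD9, INO80 and its lettered subunits, BCL7A to BCL7C, DPF1 to DPF3, and 12 further subunits. The 12 were *ARID1A*, *ARID1B*, *ARID2*, *PBRM1*, *BRD7*, *BRD9*, *PHF10*, *ACTL6A*, *SS18*, *EP400*, *BPTF* and *RSF1*. The rule used no measured value, but it was written with earlier results of these data known. It took in 24 genes of the SWI/SNF complexes, 21 remodeler genes of other families and 4 processed pseudogenes of *SMARCE1*. Of the 49, 48 passed the filter on low counts and were tested. The pseudogene *SMARCE1P6*, with 1.18 to 2.57 CPM in the 6 libraries (gene counts scaled to a common library size, with TMM factors), did not pass.

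The samples were H226 cells, an established human line labelled as lung squamous carcinoma. In 1 group the cells were transiently transfected with ASO_LINC#3, an antisense oligonucleotide (ASO) against the long noncoding RNA *SWINGN*, and in the other with the control oligonucleotide ASO_CTRL. Each group had 3 libraries of total RNA, collected 48 h after transfection. The knockdown rests on 1 oligonucleotide, and the level of the targeted RNA was not analysed here.

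Remodelers are multi-subunit machines built around an ATPase of the SNF2 type, which uses ATP to slide, evict, exchange or space nucleosomes. SWI/SNF assembles around BRG1 (*SMARCA4*) or BRM (*SMARCA2*) into canonical BAF (cBAF), PBAF or non-canonical BAF (ncBAF), opens chromatin at enhancers and promoters, and loses subunits by mutation in many tumours. ISWI complexes space nucleosomes, CHD enzymes include the ATPases of the NuRD repressor complex, and INO80 and TIP60 act on nucleosomes that hold variant histones. Because the study concerns an RNA bound by the SWI/SNF subunit SMARCB1, the comparison asks whether transcripts of the remodelers themselves differed after the knockdown.

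Gene counts summed to 5738340 to 10546786 in the libraries with ASO_CTRL and from 3686828 to 6780016 with ASO_LINC#3, where replicate 3 was the shallowest. Reads assigned to no gene made up 24.8 to 26.3% of the control libraries and 27.9 to 28.1% of the knockdown libraries. Of 7 squamous markers, *KRT5* was measured at 103 ± 12.3 CPM (SD, n = 3) with ASO_CTRL and 69.0 ± 7.87 CPM with ASO_LINC#3, lower in every knockdown library but short of the threshold (log2 fold change -0.58, adjusted p = 0.0192). *KRT6A* had 0.0318 ± 0.0551 CPM and 1.33 ± 0.638 CPM and was too low to be tested, and *TP63*, *SOX2*, *KRT14*, *DSG3* and *PKP1* have no value here. All 4 mesothelial markers had counts. Their summed level was 634 to 834 CPM with ASO_CTRL and 209 to 323 CPM with ASO_LINC#3, and *CALB2* made up most of it (601 ± 91.7 CPM against 154 ± 47.6 CPM, log2 fold change -1.97, adjusted p = 0.000195). Of the others, *UPK3B* had a log2 fold change of -0.92 (adjusted p = 0.0104), *WT1* -0.32 (adjusted p = 0.212) and *MSLN* 0.06 (adjusted p = 0.910), the last 2 with overlapping groups. *COL1A1*, the 1 of 4 fibroblast markers with a value here, fell by 1.36 on the log2 scale (adjusted p = 0.000330). The simple-epithelium markers *KRT8*, *KRT18* and *KRT19* summed to 8084 to 8465 CPM with ASO_CTRL and to 5054, 4923 and 8665 CPM with ASO_LINC#3, where replicate 3 stood apart. The part of such shifts in the remodeler values was not tested. In bulk RNA, fewer cells of a kind and less RNA per cell cannot be told apart.

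The RefSeq promoter table (assembly GRCh38.p14, 250 bases before to 50 after each start) held 58 entries for 37 of the 45 remodeler genes. *ACTL6A*, *ARID2*, *BPTF*, *CHD5*, *CHD6*, *CHD7*, *SMARCC1* and *SMARCC2* were not matched. Of these entries, 3 are printed: *CHD2* as the 1 member called below, *SMARCB1* as the subunit the study is built on, and *SMARCA2* because it shares the AP-1 motif with *SMARCB1*. They lie on the plus strand at chr15:92900074-92900373 (*CHD2*), chr22:23786716-23787015 (*SMARCB1*) and chr9:2015097-2015396 (*SMARCA2*, the first of its 4 entries), and capitals mark motif matches.
CHD2: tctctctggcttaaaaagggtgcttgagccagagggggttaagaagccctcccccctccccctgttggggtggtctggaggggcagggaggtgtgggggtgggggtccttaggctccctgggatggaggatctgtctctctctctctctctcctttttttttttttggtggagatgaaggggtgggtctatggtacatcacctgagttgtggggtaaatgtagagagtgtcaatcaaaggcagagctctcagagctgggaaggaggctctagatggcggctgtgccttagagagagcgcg
SMARCB1: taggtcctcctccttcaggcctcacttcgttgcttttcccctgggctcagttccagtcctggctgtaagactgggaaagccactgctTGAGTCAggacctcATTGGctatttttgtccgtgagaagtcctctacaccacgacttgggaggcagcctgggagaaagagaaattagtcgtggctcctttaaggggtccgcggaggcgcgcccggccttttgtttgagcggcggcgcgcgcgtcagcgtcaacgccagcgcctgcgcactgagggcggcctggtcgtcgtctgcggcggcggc
SMARCA2: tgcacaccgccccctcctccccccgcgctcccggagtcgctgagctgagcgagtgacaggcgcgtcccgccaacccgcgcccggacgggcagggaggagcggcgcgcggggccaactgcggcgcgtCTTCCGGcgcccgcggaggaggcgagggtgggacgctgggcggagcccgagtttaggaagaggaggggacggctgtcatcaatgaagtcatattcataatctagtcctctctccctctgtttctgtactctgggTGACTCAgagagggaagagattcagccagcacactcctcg
Motifs were searched on both strands, where matches may overlap: AP-1 (TGANTCA), CRE (TGACGTCA), ETS (CCGGAAG), the NRF1 core (GCGCATGC) and the CCAAT box (CCAAT). AP-1 letters stood in 3.4% of the member promoters and 7.7% of all 35116, ETS in 15.5% and 10.3%, and CCAAT in 27.6% and 34.6%. No member promoter held the CRE or NRF1 letters, which stood in 1.8% and 3.1% of all. The *SMARCB1* window held AP-1 and CCAAT letters, the *SMARCA2* window AP-1 and ETS letters, and the *CHD2* window none of the 5. Median GC content was 66.5% in the member promoters and 58.7% in all.

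Of the 48 remodeler genes tested, 1 rose, *CHD2*, and 0 fell at an adjusted p below 0.01 with a log2 fold change beyond 0.5 in edgeR's quasi-likelihood test. Over all 14660 genes tested, 4.91% were called higher and 2.63% lower. DESeq2 also called 1 member higher and 0 lower. At an unadjusted p below 0.05 there were 11 members, 4 higher and 7 lower. The last of these by p, *RSF1*, was gene 4619 of 14660. That is a larger share of all genes than 11 of 48 is of the members. The median log2 fold change of the members was 0.02, with 24 above and 24 below 0, against a median of -0.003 over all genes. Their log2 fold changes ran from -0.79 (*DPF3*) to 0.77 (*SMARCAD1*), within a range of -3.30 to 5.59 over all genes. The 95% interval of the log2 fold change lay within 1 either way for 39 of 48 members and within 0.5 for 8.

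Summed over the 49 names, remodeler transcripts came to 1599.7 ± 11.3 CPM with ASO_CTRL and 1583 ± 23.5 CPM with ASO_LINC#3, a ratio of 0.990. The libraries of the groups overlapped in this total. The 24 SWI/SNF genes summed to 762, 789 and 785 CPM in the control libraries and to 703, 694 and 750.4 CPM in the knockdown libraries, so the groups did not overlap. The 21 genes of the other families summed to 835, 794 and 794 CPM and to 882, 849 and 831 CPM, and these ranges overlapped. Within SWI/SNF 15 of 24 log2 fold changes were below 0 (median -0.14), and outside it 13 of 21 were above 0 (median 0.10). Over all genes tested, 50.3% were below 0. Gene by gene, 6 of the 24 SWI/SNF genes were lower without overlap and 1 was higher, where 17.3% and 18.7% of all genes were. How often sums over other sets of genes separate in this way was not tested.

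At a looser adjusted p below 0.05 with the same fold bound, 1 member was higher and 3 were lower. The background at that threshold was 9.70% higher and 7.11% lower. The 3 lower members were all SWI/SNF genes: *SMARCC1*, *SMARCC2* and *DPF3*. Counting libraries alone, 3 members had all ASO_LINC#3 values above all ASO_CTRL values and 9 had them all below, where 18.7% and 17.3% of all genes did so. The members' shares were 6.25% and 18.8%.

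**Figure D1:**
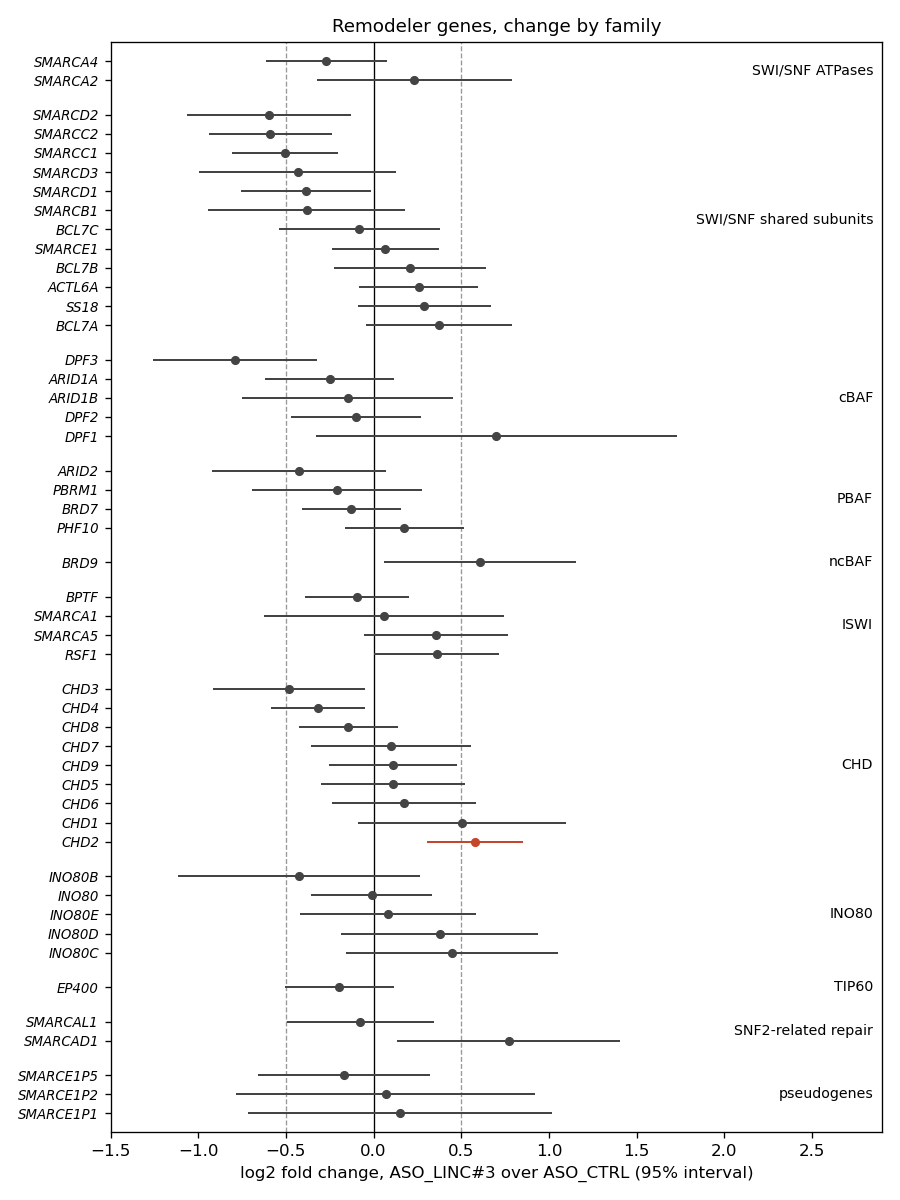
Log2 fold change of each tested remodeler gene, ASO_LINC#3 over ASO_CTRL, as points with 95% intervals (n = 3 against 3), grouped by family; dashed lines mark 0.5 either way. *CHD2*, the point in red at 0.58, is the 1 gene called, and the intervals of most other genes span 0.

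The CHD family held the called gene. *CHD2*, at chr15:93429433-93571226 in GRCh37, encodes a SNF2-type ATPase with paired chromodomains that is linked to the deposition of histone variant H3.3. It had 137, 130.4 and 133 CPM in the control libraries and 211, 206 and 181 CPM in the knockdown libraries. All 3 knockdown values stood above all 3 control values, with replicate 3 the lowest of them. The log2 fold change was 0.58 (SE 0.12, 95% interval 0.31 to 0.85, adjusted p = 0.00877). By p it was gene 1029 of 14660, so it passed close to the threshold. Its adjusted p lay above 0.01 in 8 of 15 alternatives, and the highest was 0.0530, without ASO_CTRL replicate 3. Its log2 fold change stayed between 0.54 and 0.64 in all 15.

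*CHD4* and *CHD3* encode the main ATPases of NuRD, which pairs remodeling with histone deacetylation. *CHD4* had 159.7, 159 and 148 CPM with ASO_CTRL and 126, 119.96 and 129 CPM with ASO_LINC#3. The ranges did not overlap, yet the difference did not pass (log2 fold change -0.32, SE 0.12, adjusted p = 0.0874). The annotation places 53.5% of the exonic bases of *CHD4* under other genes, in part antisense, so some of its reads may be shared. *CHD3* had 73.0, 67.8 and 62.6 CPM against 45.0, 36.8 and 65.1 CPM. Knockdown replicates 1 and 2 were below every control and replicate 3 was among them (log2 fold change -0.48, SE 0.19, adjusted p = 0.112).

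The other CHD genes did not pass. *CHD1*, the closest relative of *CHD2* and a reader of methylated H3K4, had 5.12, 9.29 and 8.78 CPM against 11.9, 12.5 and 7.86 CPM (log2 fold change 0.50, SE 0.27, adjusted p = 0.223). *CHD8*, a remodeler linked to autism, was lower in every knockdown library by a small margin, at 53.1 to 55.2 CPM against 47.2 to 51.7 CPM (log2 fold change -0.14, adjusted p = 0.466). *CHD5*, *CHD6*, *CHD7* and *CHD9* had overlapping ranges and log2 fold changes from 0.10 to 0.17. Over the 9 CHD genes 6 log2 fold changes were above 0, with a median of 0.11.

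**Figure D2:**
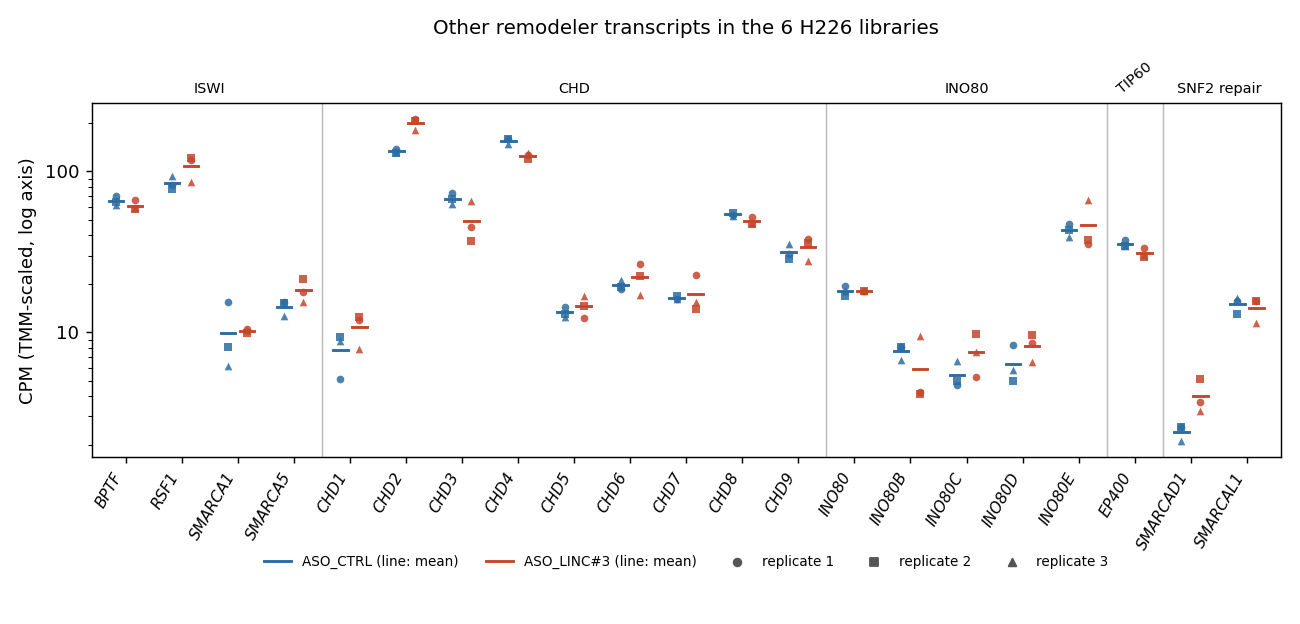
Scaled CPM (log axis) of the remodeler genes outside SWI/SNF in each library, with ASO_CTRL in blue, ASO_LINC#3 in red, 1 symbol per replicate number and lines at the group means (n = 3 each). The *CHD2* values of the groups are apart (130.4 to 137 against 181 to 211 CPM), while for *CHD3*, *RSF1*, *INO80B* and *INO80E* ASO_LINC#3 replicate 3 lies away from replicates 1 and 2.

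A SWI/SNF complex contains either of a pair of ATPases, never both. *SMARCA4* (BRG1) was the more abundant, at 16.8 CPM per kb of transcript with ASO_CTRL against 1.78 for *SMARCA2* (BRM). *SMARCA4* had 93.1, 99.98 and 87.2 CPM with ASO_CTRL and 76.9, 64.3 and 91.9 CPM with ASO_LINC#3. Replicates 1 and 2 of the knockdown were below all controls and replicate 3 was inside their range (log2 fold change -0.27, SE 0.15, 95% interval -0.61 to 0.07, adjusted p = 0.254). *SMARCA2* had 10.4, 8.09 and 12.3 CPM against 14.4, 13.5 and 7.86 CPM. Here replicates 1 and 2 were above the controls and replicate 3 was below them (log2 fold change 0.23, SE 0.25, 95% interval -0.32 to 0.78, adjusted p = 0.559). The count ratio of *SMARCA4* to *SMARCA2* was 8.97, 12.4 and 7.09 with ASO_CTRL and 5.34, 4.76 and 11.7 with ASO_LINC#3, and the groups overlapped.

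*SMARCB1* (chr22:24129118-24180196 in GRCh37) encodes a core subunit found in the cBAF and PBAF forms, the one lost in rhabdoid tumours. Over a canonical transcript of 5191 bases it stood at 2.51 CPM per kb with ASO_CTRL, against 8.55 for *SMARCC1* and 12.9 for *SMARCC2*. Such values move with the isoform chosen. *SMARCB1* had 12.0, 15.8 and 11.3 CPM in the control libraries and 7.05, 9.93 and 13.6 CPM in the knockdown libraries. The groups overlapped, since knockdown replicate 3 lay between control replicates 1 and 2. The log2 fold change was -0.38 (SE 0.25, 95% interval -0.94 to 0.17, adjusted p = 0.327). A change of 1 on the log2 scale either way lay outside that interval, while a change of 0.5 downwards lay inside it. Leaving out knockdown replicate 3 gave a log2 fold change of -0.61 (adjusted p = 0.0576), and leaving out replicate 1 gave -0.16 (adjusted p = 0.753). Of its exonic bases, 17.7% are shared with the antisense gene *DERL3*.

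*SMARCC1* (BAF155) and *SMARCC2* (BAF170) form the scaffold dimer on which SWI/SNF complexes begin to assemble. *SMARCC1*, at chr3:47626759-47823596, had 50.5, 57.1 and 55.3 CPM with ASO_CTRL and 35.7, 40.9 and 38.2 CPM with ASO_LINC#3. *SMARCC2*, at chr12:56556143-56583351, had 55.8, 67.1 and 74.7 CPM and 49.5, 39.4 and 42.3 CPM. Both were lower in every knockdown library than in every control, without overlap. Their log2 fold changes were -0.51 (SE 0.13, adjusted p = 0.0252) and -0.59 (SE 0.16, adjusted p = 0.0259), short of the threshold of 0.01. The count ratio of *SMARCC1* to *SMARCC2* was 0.906, 0.851 and 0.741 with ASO_CTRL and 0.721, 1.04 and 0.904 with ASO_LINC#3, with overlap. When trends on transcript GC content and length were removed from each library, both were called lower (adjusted p = 0.00749 and 0.00695).

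*SMARCD1*, *SMARCD2* and *SMARCD3* encode alternative BAF60 subunits, of which each complex carries 1. *SMARCD1* had 66.5, 44.6 and 50.4 CPM against 41.7, 39.9 and 42.0 CPM, without overlap (log2 fold change -0.39, SE 0.16, adjusted p = 0.131). *SMARCD2* had 26.1, 29.3 and 21.5 CPM against 15.4, 13.7 and 22.2 CPM (log2 fold change -0.60, SE 0.21, adjusted p = 0.0713). *SMARCD3* had 16.6, 18.4 and 15.7 CPM against 9.26, 10.4 and 19.0 CPM (log2 fold change -0.43, SE 0.25, adjusted p = 0.268). In *SMARCD2* and *SMARCD3* knockdown replicates 1 and 2 were below all controls and replicate 3 was not. Antisense genes cover 28.4% of *SMARCD3* exonic bases, and the strand setting of the counting is not given in the sources used here.

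The remaining shared subunits did not pass. Shared here does not mean present in every SWI/SNF form, as the case of *SMARCB1* above shows. *ACTL6A*, an actin-related protein that SWI/SNF shares with INO80 and TIP60, had the most counts of the shared subunits, at 62.2, 59.0 and 62.6 CPM against 81.3, 79.2 and 58.3 CPM (log2 fold change 0.26, SE 0.15, adjusted p = 0.273). Its replicates 1 and 2 of the knockdown were above the controls and replicate 3 was below them. *SMARCE1*, the HMG-domain subunit, was at 56.2 ± 3.72 and 58.8 ± 5.69 CPM. *BCL7A*, *BCL7B*, *BCL7C* and *SS18* had log2 fold changes from -0.08 to 0.37. The 12 shared subunits summed to 444.4 ± 9.93 CPM and 406 ± 9.21 CPM, and 7 of their 12 log2 fold changes were below 0 (median -0.23).

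**Figure D3:**
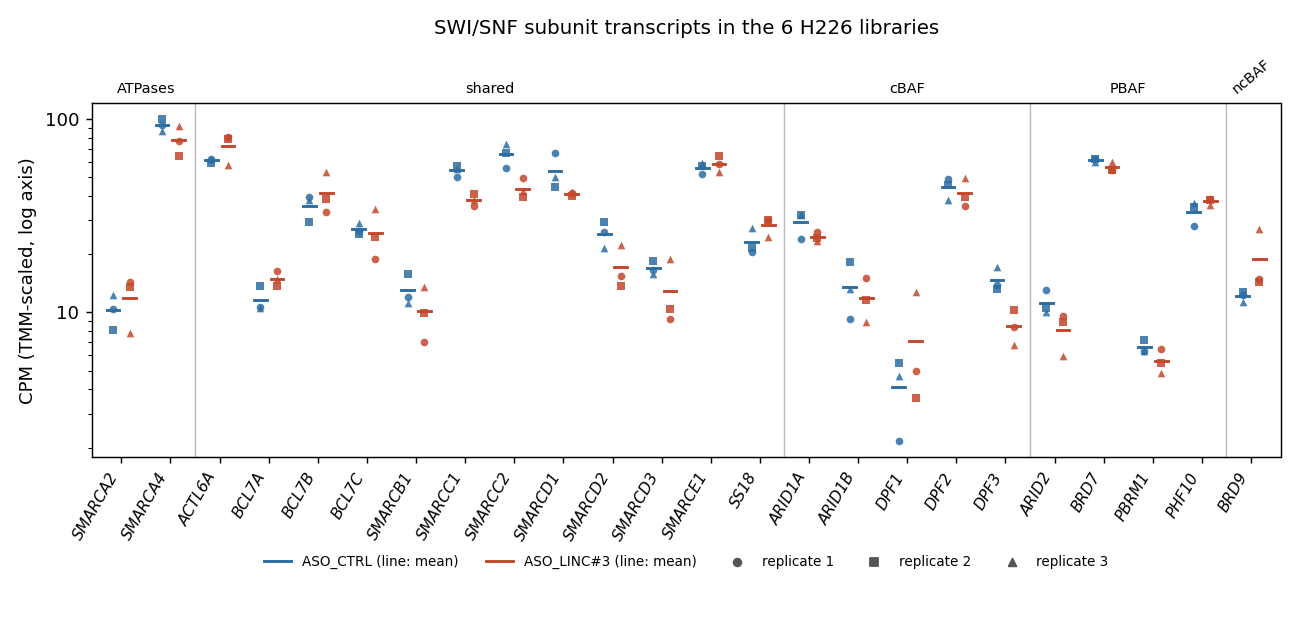
Scaled CPM (log axis) of the 24 SWI/SNF genes in each library, by module, with ASO_CTRL in blue, ASO_LINC#3 in red, 1 symbol per replicate number and lines at the group means (n = 3 each). All 3 knockdown values lie below all controls in *SMARCC1*, *SMARCC2*, *SMARCD1*, *DPF3*, *ARID2* and *BRD7*, as they do in 17.3% of all genes. In *SMARCB1*, *SMARCD2*, *SMARCD3* and *SMARCA4* the knockdown triangle (replicate 3) lies among or above the controls.

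Of the cBAF subunits, *DPF3* stood lowest. It encodes a PHD-finger protein that reads histone acetylation and is best known from heart and muscle. It had 13.9, 13.3 and 17.2 CPM with ASO_CTRL and 8.38, 10.3 and 6.78 CPM with ASO_LINC#3, all below the controls (log2 fold change -0.79, SE 0.21, 95% interval -1.25 to -0.33, adjusted p = 0.0252). Its paralog *DPF2*, the cBAF member with the most counts, had 49.3, 45.8 and 38.1 CPM against 35.7, 39.5 and 49.3 CPM (log2 fold change -0.10, adjusted p = 0.714). *DPF1*, best known from neurons, was low at 2.16 to 5.51 CPM against 3.59 to 12.7 CPM, and its log2 fold change of 0.70 had a wide interval (-0.32 to 1.72). *ARID1A* and *ARID1B*, the alternative ARID subunits that define cBAF, had log2 fold changes of -0.25 (adjusted p = 0.322) and -0.15 (adjusted p = 0.745). The count ratio of *ARID1A* to *ARID1B* was 1.76 to 2.58 with ASO_CTRL and 1.72 to 2.61 with ASO_LINC#3, so the groups overlapped.

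*ARID2*, the ARID subunit of PBAF, had 13.1, 10.5 and 10.02 CPM against 9.55, 8.90 and 5.96 CPM, without overlap (log2 fold change -0.43, SE 0.22, adjusted p = 0.217). *BRD7*, a bromodomain subunit and the PBAF member with the most counts, had 62.0, 62.3 and 60.4 CPM against 54.5, 54.6 and 60.2 CPM (log2 fold change -0.13, SE 0.12, adjusted p = 0.520). Its groups were separated by a gap far smaller than the spread, since knockdown replicate 3 lay just under the lowest control. Antisense genes cover 41.9% of the exonic bases of *BRD7*, so some of its reads may be shared. *PBRM1*, which carries a row of bromodomains, and *PHF10* had log2 fold changes of -0.21 and 0.18 with overlapping ranges.

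*BRD9*, the bromodomain subunit that marks ncBAF, had 12.3, 12.7 and 11.4 CPM with ASO_CTRL and 15.0, 14.4 and 27.1 CPM with ASO_LINC#3. All knockdown values were above the controls, with replicate 3 far above the other two. The log2 fold change was 0.61 (SE 0.24, 95% interval 0.07 to 1.15, adjusted p = 0.112), and 0.29 without replicate 3.

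The ISWI family comprised the ATPases *SMARCA5* (SNF2H) and *SMARCA1* (SNF2L) with the partner subunits *BPTF* and *RSF1*. *RSF1*, a histone-binding partner of SNF2H, had 81.9, 78.1 and 93.7 CPM against 118, 121 and 85.4 CPM (log2 fold change 0.36, SE 0.16, adjusted p = 0.146). Knockdown replicates 1 and 2 were above all controls, and replicate 3 was inside their range. *SMARCA5* had 15.5, 15.1 and 12.6 CPM against 17.8, 21.4 and 15.5 CPM (log2 fold change 0.35, SE 0.18, adjusted p = 0.212). *SMARCA1* varied among the controls from 6.20 to 15.4 CPM, while the knockdown libraries lay between 9.93 and 10.4 CPM. *BPTF*, the large subunit of NURF, had a log2 fold change of -0.09 (95% interval -0.38 to 0.19).

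In the INO80 family, the ATPase gene *INO80* had the log2 fold change nearest 0 of the 48, at 18.1 ± 1.27 CPM with ASO_CTRL and 18.02 ± 0.126 CPM with ASO_LINC#3 (log2 fold change -0.01, 95% interval -0.35 to 0.33, adjusted p = 0.972). *INO80E*, the subunit gene with the most counts, had 47.3, 43.5 and 39.2 CPM against 35.4, 37.5 and 66.4 CPM, so that replicates 1 and 2 were below the controls and replicate 3 was above them. *INO80C* had 4.71, 4.99 and 6.58 CPM against 5.29, 9.75 and 7.59 CPM (log2 fold change 0.44, SE 0.27, adjusted p = 0.289). *INO80B* had 8.08, 8.09 and 6.68 CPM against 4.26, 4.11 and 9.49 CPM (log2 fold change -0.42, SE 0.31, adjusted p = 0.378), and 76.0% of its exonic bases belong also to the read-through gene INO80B-WBP1.

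*EP400*, the ATPase of the TIP60 histone acetyltransferase complex, had 37.4, 34.4 and 34.5 CPM against 33.4, 29.3 and 30.1 CPM, a small difference without overlap (log2 fold change -0.20, SE 0.14, adjusted p = 0.357). *SMARCAD1*, an enzyme of DNA end resection and of heterochromatin upkeep, had few counts, with 2.56, 2.58 and 2.10 CPM against 3.67, 5.13 and 3.25 CPM. All knockdown values were above the controls, on a mean of 20.5 counts per library (log2 fold change 0.77, SE 0.29, 95% interval 0.14 to 1.40, adjusted p = 0.0866). *SMARCAL1*, an annealing helicase of stalled replication forks, had 15.8, 13.1 and 16.3 CPM against 15.6, 15.6 and 11.4 CPM (log2 fold change -0.08, adjusted p = 0.820). The 3 tested *SMARCE1* pseudogenes had log2 fold changes from -0.17 (*SMARCE1P5*) to 0.15, and as near copies of *SMARCE1* exonic sequence their counts are uncertain.

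Library 3 of the knockdown stood apart from replicates 1 and 2 in these genes, and the separation was not limited to them. Between whole libraries, the chi-square per degree of freedom was 2.5 for knockdown replicates 1 and 2. It was 13.02 and 14 for their pairs with replicate 3, and 6.938 to 11.93 between control libraries. Whether the correlations and sign counts below differ from those of all genes was not tested. Over the 48 tested members, the log2 change of each knockdown library from the control mean correlated at r = 0.778 between replicates 1 and 2, at 0.259 between replicates 1 and 3, and at 0.325 between replicates 2 and 3. These points share the control mean and are genes, not replicates. In 15 of 48 members replicate 3 was opposite in sign to both other libraries, and in 25 all 3 had the same sign. The difference between replicate 3 and the mean of replicates 1 and 2 went with the GC content of the transcript (r = 0.737, Spearman's rho 0.715, 48 genes of the same 6 libraries). Its median was -0.31 in the 16 members of lowest GC content (37.1 to 46.8%), -0.12 in the 16 of middle GC content (47.1 to 53.6%) and 0.63 in the 16 of highest GC content (53.7 to 66.9%).

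**Figure D4:**
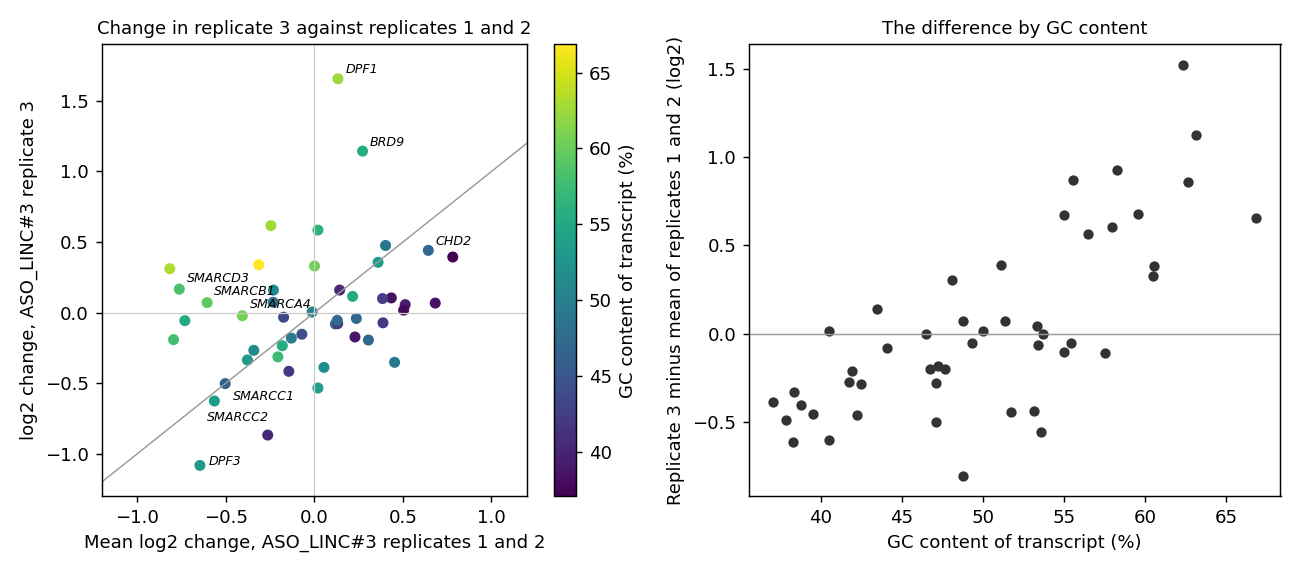
Left, log2 change of each of the 48 tested members in ASO_LINC#3 replicate 3 against the mean change in replicates 1 and 2, coloured by transcript GC content, with the line of equality; right, the difference between them against GC content (%). Genes of high GC content such as *DPF1*, *BRD9*, *SMARCD3* and *SMARCB1* lie above the line, and the difference runs from below 0 at low GC content to above 0 at high GC content (r = 0.737).

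A pair of alternatives bear on that library. Without it, 1 member was called higher (*CHD2*, log2 fold change 0.64, adjusted p = 0.000606) and 4 lower of 49 tested: *CHD3* (-0.72, adjusted p = 0.00162), *SMARCD2* (-0.80, adjusted p = 0.00473), *SMARCD3* (-0.77, adjusted p = 0.00556) and *SMARCC1* (-0.50, adjusted p = 0.00865). The background then was 9.42% higher and 7.81% lower, and the members' shares were 2.04% and 8.16%. With the trends on GC content and length removed and all 6 libraries kept, 1 member was higher (*CHD2*) and 2 were lower (*SMARCC1* and *SMARCC2*), against 6.51% and 5.27% of all genes. After that removal the log2 changes of *SMARCB1* in the 3 knockdown libraries were -0.78, -0.24 and -0.21 in place of -0.84, -0.37 and 0.07. Those of *SMARCA4*, below 0 in every library before and after, were -0.20, -0.38 and -0.31 in place of -0.28, -0.53 and -0.02. Those of *SMARCD2*, also below 0 both ways, were -0.64, -0.76 and -0.47 in place of -0.71, -0.88 and -0.19. *BRD9* kept its high replicate 3 (0.31, 0.30 and 0.91). In other members replicate 3 moved further from the mean of replicates 1 and 2. The difference went from -0.11 to -0.41 in *ARID1A*, -0.10 to -0.37 in *PHF10* and 0.02 to 0.36 in *SMARCA1*. The genes named are examples, and members moving each way were not counted. The correlation of the replicate 3 difference with GC content was 0.241 after the removal. Whether the source of this trend lies in the library or in the cells was not tested.

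Other subunits of the same complexes were listed by hand. *BICRA* and *BICRAL* were listed beside their older symbols *GLTSCR1* and *GLTSCR1L*, which hold the counts, and *ACTL6B* and *CECR2* have no value here. In all, 47 of 51 names had counts. Of these 1 fell and 0 rose, where 2.63% of all genes were called lower and 4.91% higher. *BAZ1A* (ACF1), the partner of SNF2H in the ACF and CHRAC complexes, had 51.4, 51.5 and 54.3 CPM with ASO_CTRL and 36.2, 29.6 and 33.9 CPM with ASO_LINC#3 (log2 fold change -0.66, SE 0.14, adjusted p = 0.00870). The next by p were 5 that did not pass: *HDAC1*, the NuRD deacetylase (log2 fold change -0.57, adjusted p = 0.0224), *MCRS1* of INO80 (-0.71, 0.0264), *POLE3* of CHRAC (-0.42, 0.0537), *MTA3* of NuRD (-0.40, 0.0555) and *TRRAP* of TIP60 (-0.62, 0.0726). After *MTA2* of NuRD (-0.59, 0.0767), *SRCAP*, the ATPase of the complex of that name, was the first by p on the higher side (0.63, 0.0782). Of the 47, 8 were lower in every knockdown library than in every control, *BAZ1A* and the 6 named after it up to *MTA2* among them, and 5 were higher in every one, where 17.3% and 18.7% of all genes were. Over the 47 the median log2 fold change was 0.01, with 24 above and 23 below 0.

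Per kb of transcript, the most abundant remodeler genes with ASO_CTRL were *INO80E* (37.6 CPM per kb), *ACTL6A* (33.1) and *BCL7C* (31.5), and the least abundant were *INO80D* (0.452) and *SMARCAD1* (0.474), around a median of 5.76 over 45 genes. These values use the length of the canonical transcript and move with the isoform chosen. The order was much the same with ASO_LINC#3, where the log2 mean levels of the groups correlated at r = 0.963 over these 45 genes. *CHD2* stood at 14.3 CPM per kb with ASO_CTRL and at 21.3 with ASO_LINC#3. For 1 gene alone, exact permutation of 3 and 3 libraries has 20 arrangements and cannot give a two-sided p below 0.1, so the tests above are those fitted across all genes.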

How the data were processed

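RNA-seq of 6 H226 libraries was analysed: ASO_CTRL and ASO_LINC#3, 3 each, grouped by their labels. The authors reverse-transcribed with oligo-dT, sequenced single reads of 75 bp and mapped them with STAR to hg19, and the counts they deposited are raw whole numbers per gene name. The counting tool, annotation and strand setting are not given in the sources used here, and the methods name BJ cells for this experiment where the labels and legend name H226. Closing rows for reads assigned to no gene (24.8 to 28.1% of each total) were left out.

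Counts on 17222 names were filtered with filterByExpr, scaled by TMM and tested with edgeR 4.0.16 (R 4.3.3, limma 3.58.1) by its quasi-likelihood F-test, and p-values of 14660 genes were adjusted by Benjamini-Hochberg. Genes were called at an adjusted p below 0.01 and a log2 fold change beyond 0.5, the thresholds of the study. CPM are TMM-scaled, SD is over 3 libraries, and log2 changes per library use a prior count of 2. The common biological coefficient of variation was 0.159. Replicates of a group differed by more than sampling noise (chi-square per degree of freedom 2.50 to 14.0). The study describes its experiments in general as biological triplicates, and the labels number these libraries without naming cultures.

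The members, families and lists were chosen with earlier results of these data known. Values in every library are given for called members, *SMARCB1*, *SMARCA4*, *SMARCA2* and, per family, the member of smallest p and of highest mean count; others given so, and *MTA2* and *SRCAP*, were chosen after their values were seen. Gene positions, transcript length (canonical transcript), GC content and exon overlaps come from GENCODE v44 on GRCh37, which matched 13370 names as listed and 970 by an older symbol. GC content was known for 87.2% of tested genes and for all 48 tested members. Alternatives were DESeq2 1.42.0, other scalings and filters, an adjusted p below 0.05, a replicate block, removal of GC and length trends, and leaving out each library. The fits were tested on simulated data. There, 26 of 98 genes with a simulated log2 shift of 1 were called, and 2 of 98 with a shift of 0.5. Of 14255 genes simulated without a shift, 2 were called. Far fewer genes were shifted there than the 1106 called in the data, so the same adjusted p asked for a smaller p. These shares therefore do not give the power of the test on the data. A gene that was not called may still have changed.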

Additional observations from a re-analysis of the deposited data

How the results depend on the processing

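The number of remodeler genes called higher was 1 (*CHD2*) with DESeq2, DESeq2 size factors, library size only, both other filters and GC and length removal. It was 0 with upper quartile scaling (adjusted p = 0.0109) and 0 to 1 over fits without 1 library, 1 only without ASO_LINC replicate 3. The number called lower was 0 with those scalings and filters, 2 with GC and length removed, 3 at an adjusted p below 0.05 and 0 to 4 without 1 library, above 0 only without ASO_LINC replicate 3. The median log2 fold change was -0.0503 with at least 10 counts in every library, -0.0310 with GC and length removed, and -0.0418 to 0.0404 without 1 library. Same-numbered libraries did not deviate together (correlations 0.0592, -0.148 and -0.179). With 3 libraries per group and knockdown replicate 3 apart from the others, this cannot decide whether the numbers pair them. With a replicate block the calls among members were 0 higher and 0 lower (*CHD2* adjusted p = 0.0359), and over all genes 656 in place of 1106. With the block and GC and length removed they were 0 and 0 (*CHD2* adjusted p = 0.0120) and the median was -0.00848. Over all genes calls ranged from 359 to 2616 when 1 library was left out, and were 1526 with DESeq2. Of the 48 members, 38 kept 1 sign in every alternative fit, and 6 were called in at least 1 of those fits at the same thresholds. At an adjusted p below 0.05, *DPF3* was called as well. Depth limits the scarcest members most, such as *SMARCAD1* and *DPF1*.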
